A study of Mus musculus with 6 samples.

Results

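The genes described here are 10 of the genes that pancreatic β cells keep at low levels although most other tissues use them: Ldha, Slc16a1, Oat, Igfbp4, Cxcl12, Mgst1, Pdgfra, Zfp36l1, Smad3 and Tst. They were listed by name, and each was read from the probe set that carries its symbol alone and is brightest over the 6 arrays. All 10 were found, each with 1 such probe set, among 19937 genes on the arrays. RNA of whole islets was compared between 3 Sox17-GOF samples (Ins2-rtTA;tetO-Sox17) and 3 control samples (Ins2-rtTA), from mice 16 weeks of age that all received doxycycline in food and water for 24 hours. The methods give adult males for this experiment. The labels give the strain as C57BL/6, reached by backcrossing. In Sox17-GOF islets doxycycline lets rtTA, which the Ins2 promoter drives in insulin-producing cells, switch on the tetO-Sox17 transgene. By the genotype in the sample labels, the control islets carried the rtTA without the transgene, and they had the same doxycycline. A legend of the study for protein stains after 24 hours of doxycycline gives tetO-Sox17 controls for that experiment. The labels were followed here. By the methods, the 3 samples of a genotype are separate biological replicates, and 1 array was run per sample.

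Genes of this class are called disallowed because β cells keep them low where other tissues use them. The products of some interfere with the way a β cell couples glucose to insulin release. Lactate dehydrogenase and the monocarboxylate transporter MCT1 are the classic pair: with both low, pyruvate made from glucose enters the mitochondria rather than leaving as lactate, and pyruvate or lactate from the blood does not set off insulin secretion. In humans, promoter mutations that turn on SLC16A1 in β cells cause insulin release during exercise. In mouse β cells the DNA methyltransferase DNMT3A is known to help silence Ldha and Hk1. Many disallowed genes are in use in the duct, stromal, endothelial and blood cells that lie in or cling to isolated islets. The arrays measured whole islets, so fewer cells of a type and less RNA per cell cannot be told apart.

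Sox17 was higher on every Sox17-GOF array, at log2 levels of 6.35, 6.22 and 6.36 in Sox17-GOF islets, against 5.50, 5.72 and 5.71 in control islets (log2 fold change 0.67, adjusted p = 0.00876 from limma, a linear model with moderated variances). All values are RMA signals on the log2 scale, on which a difference of 1 is a 2-fold change. Arrays of one group correlated at 0.984 to 0.991 over probe sets. The first principal component (37.4% of the variance) separated the groups. The second (21.5%) spread the Sox17-GOF arrays, with replicates 1 and 3 at opposite ends and the control arrays between them, at scores of -31.4, -10.0 and 38.4 for Sox17-GOF replicates 1, 2 and 3, against -0.3, 7.1 and -3.9 for the control replicates. The β cell markers Ins2 and Iapp were among the brightest signals on all arrays, with Ins2 at 13.02 to 13.12 in Sox17-GOF islets, against 13.03 to 13.12 in control islets. Of the 8 β cell markers examined, 4 were called lower in Sox17-GOF islets (Slc2a2, Ucn3, G6pc2 and Slc30a8), where 2.32% of all probe sets tested were. Exocrine signal was present in both groups: the mean level of 8 acinar markers was 10.09 to 10.97 on the Sox17-GOF arrays and 10.63 to 10.94 on the control arrays.

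Promoter sequences from RefSeq (GRCm38.p6) were available for 9 of the 10 genes, as 11 windows of 250 bases before to 50 bases after an annotated start site. Tst had no entry. The 3 windows printed here belong to the gene that passed the test, Cxcl12, and to the lactate pair, Ldha and Slc16a1. Capitals mark the core letters of the SOX motif (ACAAT, or ATTGT on the other strand) in Cxcl12 and the E-box CACGTG, which reads the same on both strands, in Ldha and Slc16a1.
Cxcl12 (chr6:117168285-117168584, plus strand): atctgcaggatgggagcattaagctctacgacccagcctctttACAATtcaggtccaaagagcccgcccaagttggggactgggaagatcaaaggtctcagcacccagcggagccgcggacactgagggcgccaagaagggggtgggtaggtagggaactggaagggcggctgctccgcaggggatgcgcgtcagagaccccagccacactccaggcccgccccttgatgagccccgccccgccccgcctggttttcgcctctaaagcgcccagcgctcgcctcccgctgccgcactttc
Ldha (chr7:46845554-46845853, plus strand): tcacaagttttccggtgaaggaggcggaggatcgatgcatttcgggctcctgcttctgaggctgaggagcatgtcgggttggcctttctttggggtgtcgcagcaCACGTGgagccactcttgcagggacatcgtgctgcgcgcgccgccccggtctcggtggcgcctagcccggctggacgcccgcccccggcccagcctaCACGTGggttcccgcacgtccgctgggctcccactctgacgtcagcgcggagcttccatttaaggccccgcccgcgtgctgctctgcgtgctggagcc
Slc16a1 (chr3:104638414-104638713, plus strand): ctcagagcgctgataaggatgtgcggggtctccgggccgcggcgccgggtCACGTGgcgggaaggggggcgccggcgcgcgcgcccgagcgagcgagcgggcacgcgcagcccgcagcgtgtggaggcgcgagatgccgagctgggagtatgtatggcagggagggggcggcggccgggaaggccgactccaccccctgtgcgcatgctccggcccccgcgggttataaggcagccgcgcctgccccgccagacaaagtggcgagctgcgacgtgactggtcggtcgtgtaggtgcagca
The SOX core was found in 2 of the 11 windows, at 207 bases before the start of Cxcl12 and at 118 bases before the second start of Mgst1. Over all 32851 promoter windows of this length, 31.0% held it. The E-box was found in 2 of the 11 windows, at 145 and 48 bases before the first start of Ldha and at 200 bases before the start of Slc16a1, and 7.15% of all windows held it. These are matches of letters only. The windows were rich in CpG, the dinucleotide that DNA methyltransferases act on, with a median of 20 per window against 7 over all windows. The count was 42 for Slc16a1, 30 and 13 for the 2 Ldha starts, 27 for Igfbp4, 25 for Smad3, 22 for Oat, 20 for Cxcl12, 15 for Zfp36l1, 13 and 1 for the 2 Mgst1 starts, and 5 for Pdgfra.

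Of the 10 genes, 1 passed an adjusted p of 0.05: Cxcl12 was higher in Sox17-GOF islets. None was lower. Over all 22961 probe sets tested, 2.61% were called higher and 2.32% lower, 4.93% in all, so a single call among 10 genes stays close to that background. The groups did not overlap for 3 of the 10 genes (Ldha, Cxcl12 and Pdgfra, all higher in Sox17-GOF islets), where 24.9% of all probe sets had no overlap. At an unadjusted p under 0.05 there were 2 genes (Cxcl12 and Pdgfra), where 19.1% of all probe sets passed. The log2 fold change was above 0 for 8 of the 10 genes, against 47.1% of all 19937 genes. Its median was 0.33, against -0.01 over all genes. Without Sox17-GOF replicate 3, 6 of the 10 were above 0, the median was 0.15, and none passed the adjusted threshold (limma; 2 passed at an unadjusted p under 0.05). Without Sox17-GOF replicate 1, 2 passed the adjusted threshold, Cxcl12 and Mgst1.

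**Figure D1:**
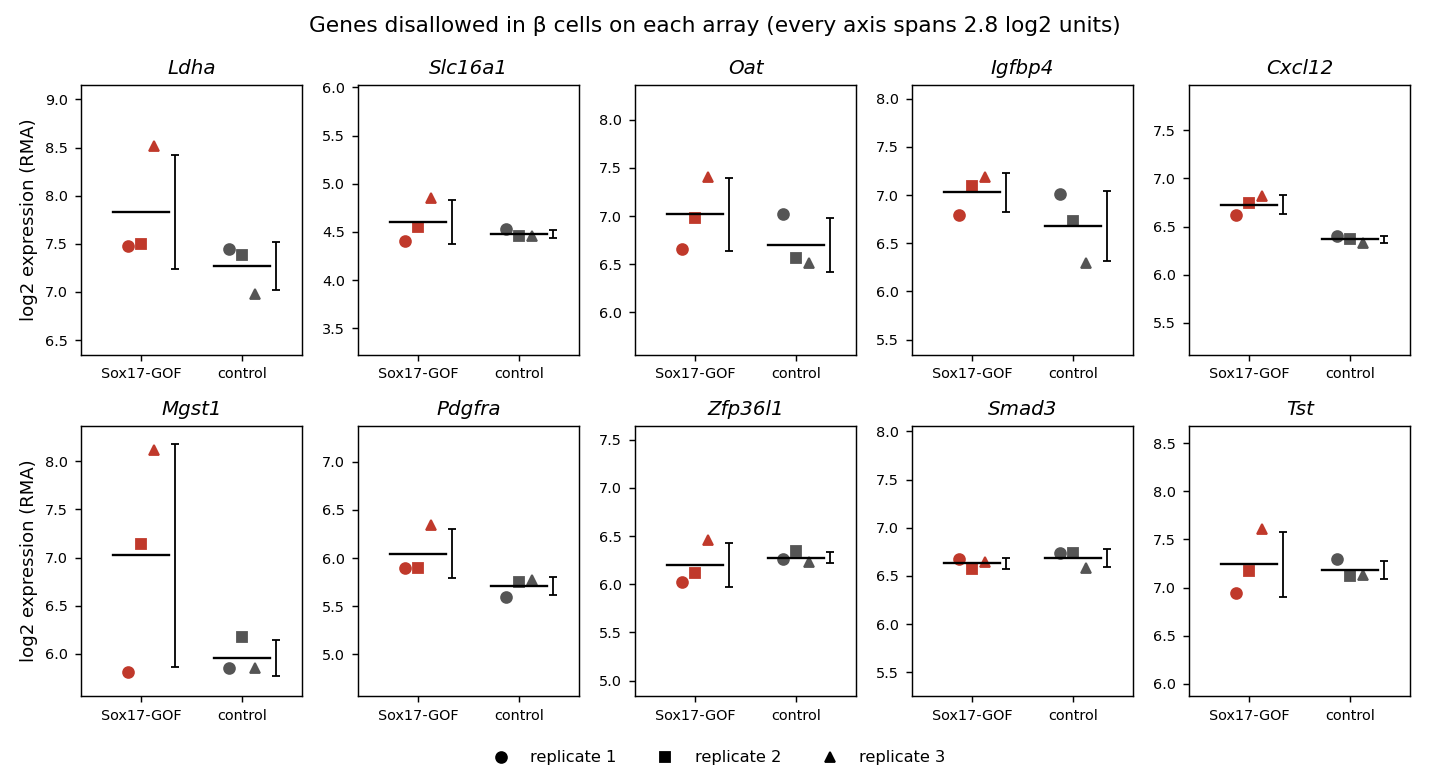
log2 expression (RMA) of each gene on each array, with Sox17-GOF replicates in red on the left and control replicates in grey on the right; horizontal lines are group means, vertical bars are SDs (n = 3 each), and all panels span the same log2 range. In 9 of the 10 panels the Sox17-GOF replicate 3 triangle is the highest of the 6 arrays, and in the Cxcl12 panel all Sox17-GOF points lie above all control points.

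The lactate pair was examined first. Ldha, which encodes the A subunit of lactate dehydrogenase and converts pyruvate to lactate, stood at 7.48, 7.50 and 8.52 in Sox17-GOF islets and at 7.44, 7.39 and 6.98 in control islets. The groups did not overlap, but the lowest Sox17-GOF value and the highest control value were close, and replicate 3 alone was clearly above the rest. The log2 fold change was 0.56 (standard error 0.28, 95% interval -0.09 to 1.21, adjusted p = 0.337, limma), and 0.22 without Sox17-GOF replicate 3. Slc16a1, which encodes MCT1, was read near the array background: its values of 4.40, 4.55 and 4.85 in Sox17-GOF islets, against 4.53, 4.46 and 4.46 in control islets lie around 4.63, the 20th percentile of all values. The groups overlapped, and the log2 fold change was 0.12 (standard error 0.12, interval -0.16 to 0.39, adjusted p = 0.658, limma). It was -0.01 without Sox17-GOF replicate 3.

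Genes that handle lactate and pyruvate next to this pair gave no call. Of 18 measured genes (Mpc2 was not analysed here), none passed the adjusted threshold in either direction (limma). An unadjusted p under 0.05 was reached by 2, where 19.1% of all probe sets had one. The median log2 fold change of the 18 was -0.03, with 7 above 0 and 11 below. The widest difference was that of Pdk4, a kinase that shuts off pyruvate dehydrogenase, with a log2 fold change of -0.73 (adjusted p = 0.466, limma). Its values were 7.27, 6.34 and 6.83 in Sox17-GOF islets, against 8.13, 8.10 and 6.40 in control islets, so 1 control array lay with the Sox17-GOF arrays.

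Among the enzymes, Mgst1 had the widest difference of the 10 genes and the widest spread. It encodes a microsomal glutathione transferase that detoxifies lipid peroxides. Mgst1 stood at 5.81, 7.14 and 8.11 in Sox17-GOF islets and at 5.85, 6.17 and 5.86 in control islets. Replicate 1 of Sox17-GOF lay below every control array, while replicates 2 and 3 lay above all of them. The SD was 1.15 in Sox17-GOF islets, against 0.19 in control islets (n = 3 each), and the log2 fold change of 1.06 (2.09-fold, standard error 0.50, interval -0.09 to 2.22) did not pass (adjusted p = 0.304, limma). Leaving out Sox17-GOF replicate 1 gave a log2 fold change of 1.67 that did pass (adjusted p = 0.0277, limma), whereas leaving out replicate 3 gave 0.52 (adjusted p = 0.520).

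Oat encodes the mitochondrial enzyme that links ornithine to glutamate and proline. Its values were 6.66, 6.98 and 7.41 in Sox17-GOF islets, against 7.02, 6.57 and 6.51 in control islets. The groups overlapped (log2 fold change 0.32, standard error 0.21, interval -0.17 to 0.80, adjusted p = 0.480, limma). Of 8 further ornithine and proline enzymes measured, none passed and 1 had an unadjusted p under 0.05 (limma), where 19.1% of all probe sets had one. The median log2 fold change of the 8 was 0.01. The widest difference was that of Arg1, arginase 1, which produces ornithine: 9.04, 8.58 and 8.82 in Sox17-GOF islets against 8.43, 8.29 and 8.21 in control islets (log2 fold change 0.50, adjusted p = 0.0710, limma), with no overlap between groups.

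Tst encodes the mitochondrial sulfurtransferase rhodanese, which handles thiosulfate. Tst stood at 6.94, 7.17 and 7.61 in Sox17-GOF islets and at 7.29, 7.12 and 7.13 in control islets, with a log2 fold change of 0.06 (standard error 0.16, interval -0.32 to 0.44, adjusted p = 0.890, limma) and -0.12 without Sox17-GOF replicate 3. Among 8 related genes, the other microsomal glutathione transferases and the enzymes that make and oxidize sulfide, 1 was higher and 1 lower. Cbs, cystathionine beta-synthase, which also produces hydrogen sulfide, stood at 10.37, 10.01 and 9.66 in Sox17-GOF islets and at 8.60, 8.50 and 8.54 in control islets. This amounts to 2.77-fold, or a log2 fold change of 1.47 with a standard error of 0.16 (adjusted p = 0.00414, limma). Sqor, which oxidizes sulfide in mitochondria, was lower, at 9.14, 9.28 and 9.34 in Sox17-GOF islets, against 9.77, 9.79 and 9.75 in control islets (log2 fold change -0.52, standard error 0.08, adjusted p = 0.0134, limma). The Sqor call ended without control replicate 1 (adjusted p = 0.0576) or control replicate 2 (0.0677). For both genes the groups were far apart, and for Cbs replicate 3 was the lowest Sox17-GOF array.

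The secreted and receptor genes included the single call. Cxcl12, a chemokine that stromal cells release and that acts on Cxcr4, stood at 6.62, 6.74 and 6.81 in Sox17-GOF islets and at 6.40, 6.37 and 6.33 in control islets. All Sox17-GOF arrays lay above all control arrays, and the spread was small, with SDs of 0.10 in Sox17-GOF islets, against 0.04 in control islets (n = 3 each). The log2 fold change was 0.36, or 1.28-fold (standard error 0.08, interval 0.17 to 0.55, adjusted p = 0.0486, limma). An exact permutation test of 3 samples against 3 cannot go below p = 0.10 (two-sided). The adjusted p lay just inside the threshold, and the call ended without Sox17-GOF replicate 2 (adjusted p = 0.132), Sox17-GOF replicate 3 (0.106), control replicate 1 (0.124), control replicate 2 (0.154) or control replicate 3 (0.145), while the log2 fold change stayed between 0.32 and 0.41.

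The 3 genes whose centred profiles over the 6 arrays were most like that of Cxcl12 were Dnase1l1, Npas3 and Astn1, with root mean square differences of 0.03, 0.04 and 0.04 log2 units. Their log2 fold changes were 0.32 for Dnase1l1, which did not pass (adjusted p = 0.0665, limma), 0.36 for Npas3 (adjusted p = 0.0416) and 0.37 for Astn1 (adjusted p = 0.0365). Such likeness over 6 arrays is a description with no test.

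Pdgfra, a receptor for platelet-derived growth factors and a mark of mesenchymal cells, stood at 5.89, 5.90 and 6.34 in Sox17-GOF islets and at 5.60, 5.75 and 5.77 in control islets. All Sox17-GOF arrays lay above all control arrays, again with replicate 3 highest. The log2 fold change was 0.34 (standard error 0.13, interval 0.03 to 0.64, adjusted p = 0.226, limma), and 0.19 without Sox17-GOF replicate 3. Of 8 further ligands and receptors of the CXCL12 and PDGF systems, 1 was called. Pdgfd, a ligand that acts chiefly on the PDGF β receptor, was higher at 6.85, 6.82 and 6.83 in Sox17-GOF islets, against 6.40, 6.28 and 6.06 in control islets (log2 fold change 0.59, standard error 0.10, adjusted p = 0.0176, limma). The Pdgfd call ended without Sox17-GOF replicate 2 (adjusted p = 0.0558) or control replicate 2 (0.0712).

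Igfbp4, a secreted protein that binds insulin-like growth factors and holds them from their receptor, stood at 6.80, 7.09 and 7.19 in Sox17-GOF islets and at 7.01, 6.73 and 6.30 in control islets. The groups overlapped, and the control arrays were the more spread (log2 fold change 0.35, standard error 0.19, interval -0.09 to 0.78, adjusted p = 0.373, limma). Among 13 further genes of the IGF system, 1 was called. Igfals, the subunit that holds circulating IGF in a large complex, was lower at 7.50, 7.60 and 7.69 in Sox17-GOF islets, against 7.93, 8.35 and 8.11 in control islets (log2 fold change -0.53, standard error 0.12, adjusted p = 0.0484, limma). This call ended whichever array was left out, with adjusted p-values of 0.112, 0.123 and 0.0655 without Sox17-GOF replicates 1, 2 and 3 and of 0.0503, 0.132 and 0.124 without control replicates 1, 2 and 3.

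The regulators had differences close to 0. Smad3, which carries TGF-β and activin signals to the nucleus, stood at 6.68, 6.57 and 6.64 in Sox17-GOF islets and at 6.74, 6.74 and 6.58 in control islets. The groups overlapped (log2 fold change -0.06, standard error 0.08, interval -0.25 to 0.13, adjusted p = 0.766, limma). Smad3 was the 1 gene in which replicate 3 was not the highest Sox17-GOF array. Zfp36l1, an RNA-binding protein that speeds the decay of AU-rich messages, stood at 6.02, 6.11 and 6.46 in Sox17-GOF islets and at 6.26, 6.34 and 6.23 in control islets. Its replicates 1 and 2 of Sox17-GOF lay below every control array and replicate 3 above every one (log2 fold change -0.08, standard error 0.12, interval -0.36 to 0.20, adjusted p = 0.792, limma), with -0.21 without Sox17-GOF replicate 3.

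Of 14 relatives of these regulators, the other SMADs and ZFP36 proteins among them, none was called and 5 had an unadjusted p under 0.05 (limma). Of all probe sets, 19.1% had one. The median log2 fold change of the 14 was -0.06. The widest difference was that of Smad2, the close partner of Smad3, at 9.70, 9.47 and 9.51 in Sox17-GOF islets, against 9.26, 9.16 and 9.05 in control islets (log2 fold change 0.40, standard error 0.10, adjusted p = 0.0590, limma), with no overlap between groups.

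**Figure D2:**
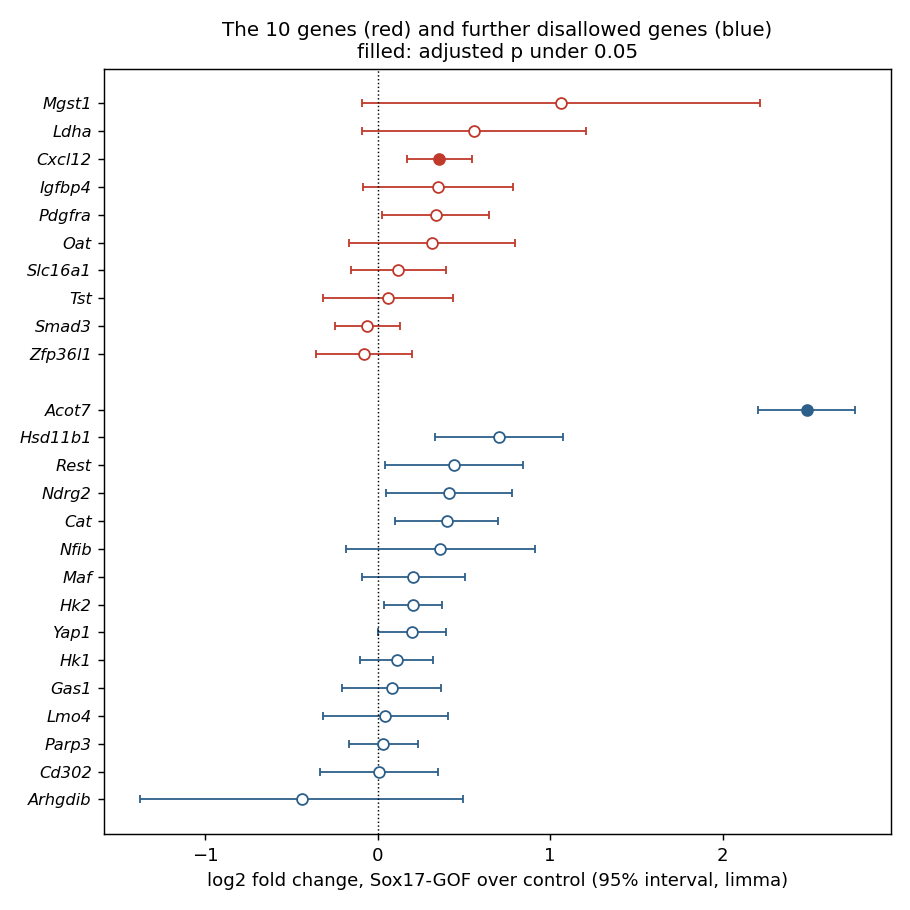
log2 fold change (Sox17-GOF over control, horizontal axis) with its 95% interval from limma for the 10 genes in red and 15 further disallowed genes in blue; filled points passed an adjusted p of 0.05. Cxcl12 is the filled red point at 0.36 with a short interval, Mgst1 has the widest red interval (-0.09 to 2.22), and Acot7 stands alone at 2.49.

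A further 15 genes named as disallowed or low in β cells were measured beside the 10 (Fcgrt was not analysed here). Of these, 1 was called, higher in Sox17-GOF islets, and 7 had an unadjusted p under 0.05 (limma), where 19.1% of all probe sets had one. Their median log2 fold change was 0.20, against -0.01 over all genes, and 14 of the 15 were above 0, against 47.1% of all genes. Sox17-GOF replicate 3 was the highest of all 6 arrays for 10 of the 15, against 18.0% of all genes. Its median excess over the mean of replicates 1 and 2 was 0.24 in this list, so 1 array weighs on these figures. Acot7, which encodes an acyl-CoA thioesterase that splits long-chain acyl-CoA, was the call: 9.39, 9.10 and 8.93 in Sox17-GOF islets against 6.71, 6.65 and 6.62 in control islets. The log2 fold change was 2.49, or 5.60-fold (standard error 0.12, adjusted p = 0.000125, limma), a change that 18 of the 19937 genes, Acot7 included, reached or passed upward. The call held in all 15 alternatives. Hsd11b1, the enzyme that activates glucocorticoids, was chosen after its values were seen, as the next in size: 5.68, 6.16 and 6.11 in Sox17-GOF islets against 5.40, 5.42 and 5.02 in control islets (log2 fold change 0.71, adjusted p = 0.0510, limma), with no overlap. Thus 2 of the 25 disallowed genes passed, where 4.93% of all probe sets tested were called. The 10 genes and this list were chosen with earlier results of these data known. The 2 called genes differed in how the Sox17-GOF arrays were ordered: Acot7 was highest on replicate 1, Cxcl12 on replicate 3.

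Genes of DNA methylation and polycomb repression, which add, remove or help to place marks of silenced genes, held 1 higher and 1 lower gene among 11. Ezh2, the polycomb methyltransferase of histone H3, stood at 9.24, 9.29 and 9.06 in Sox17-GOF islets and at 7.75, 7.86 and 7.73 in control islets (a log2 fold change of 1.42, or 2.67-fold, with a standard error of 0.09 and an adjusted p of 0.000327 by limma), and the call held in all 15 alternatives. Dnmt3a, a methyltransferase that sets new DNA methylation, was lower at 8.90, 8.91 and 8.91 in Sox17-GOF islets, against 9.43, 9.18 and 9.33 in control islets (log2 fold change -0.40, standard error 0.09, adjusted p = 0.0410, limma). The Dnmt3a call ended whichever array was left out, with adjusted p-values of 0.0870, 0.111 and 0.0817 without Sox17-GOF replicates 1, 2 and 3 and of 0.133, 0.0613 and 0.121 without control replicates 1, 2 and 3. The 3 probe sets of Tet1 and the 2 of Tet3, enzymes that remove DNA methylation, each had log2 fold changes of both signs and did not pass. Hk1, named above with Ldha as a gene that DNMT3A helps to silence, was read from the brighter of its 2 probe sets. This probe set had a mean of 12.64 in Sox17-GOF islets, against 12.53 in control islets (adjusted p = 0.578, limma). The other probe set was far dimmer, at 6.32 in Sox17-GOF islets, against 6.17 in control islets (adjusted p = 0.399, limma), with no overlap between groups. By mean signal, the brighter lay at the 99.3rd and the dimmer at the 47.8th percentile of all probe sets. Which of the 2 reads Hk1 was not checked, so the bright level is no sure measure of this gene. The arrays hold no measure of methylation itself.

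**Figure D3:**
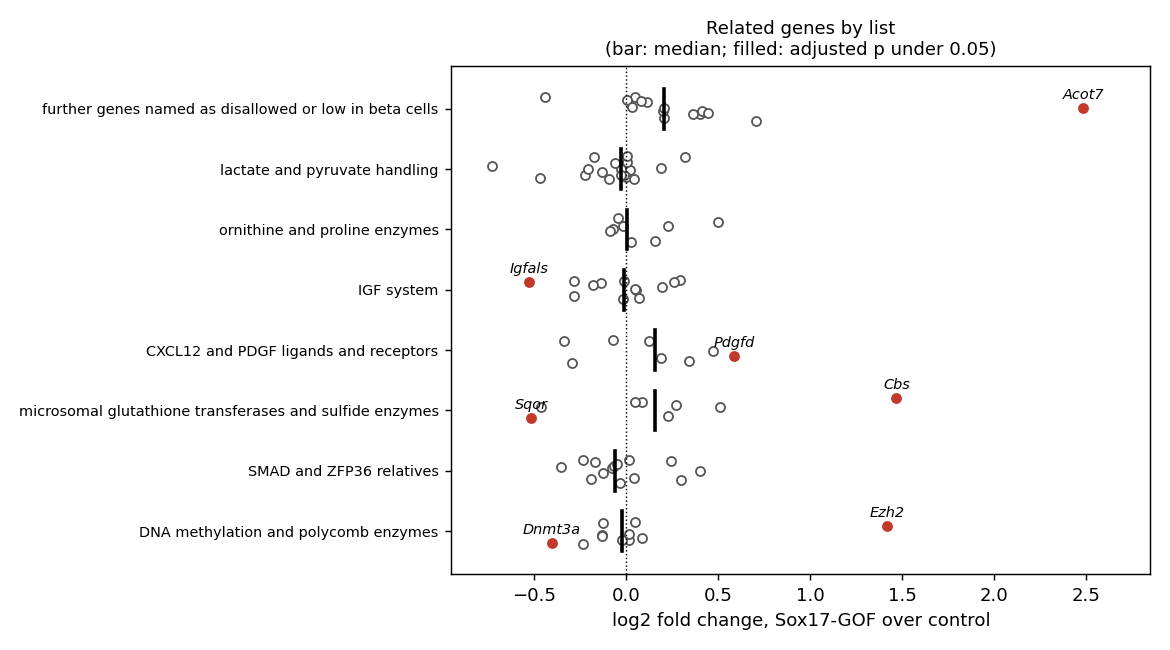
log2 fold change (Sox17-GOF over control, horizontal axis) of each measured gene in the 8 lists of related genes; vertical bars are list medians and filled points passed an adjusted p of 0.05. Of the 95 genes, 4 lie to the right as called higher (Acot7, Cbs, Ezh2, Pdgfd) and 3 to the left as called lower (Igfals, Sqor, Dnmt3a), and all list medians lie between -0.06 and 0.20.

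Over all 95 related genes, 4 were called higher and 3 lower, with a median log2 fold change of 0.01, and 29 had no overlap between groups. The shares called and without overlap in the probe sets tested were 4.93% and 24.9%, as given above.

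Most of the 10 genes, all but Smad3, shared the array on which they were highest. No comparison of this array with the others was set in advance. Sox17-GOF replicate 3 was the highest of the 3 Sox17-GOF arrays for 9 of the 10, against 32.7% of all genes, and the highest of all 6 arrays for 9 of the 10, against 18.0% of all genes. The median excess of replicate 3 over the mean of replicates 1 and 2 was 0.42, against -0.01 over all genes. The spread among Sox17-GOF arrays was wide, with a median SD of 0.24 in Sox17-GOF islets, against 0.10 in control islets, against 0.12 in Sox17-GOF islets, against 0.10 in control islets over all genes. Of the 15 further disallowed genes, 11 were highest on replicate 3 of the Sox17-GOF arrays. Of the 11 methylation and polycomb genes, 3 were. In other related lists, 5 of 8 glutathione transferase and sulfide genes, 4 of 8 ornithine and proline enzymes and 5 of 14 SMAD and ZFP36 relatives were. So were 4 of 13 IGF system genes, 3 of 18 lactate and pyruvate genes and 2 of 8 CXCL12 and PDGF genes. Over all 95 related genes, the count was 37. These counts describe 1 array.

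Markers of other cell types were read on the same arrays. The mean level of 5 measured duct markers (of 7 listed) was 7.07, 7.42 and 8.06 in Sox17-GOF islets, against 7.26, 7.05 and 7.06 in control islets, and 4 of the 5 were highest of all 6 arrays on Sox17-GOF replicate 3. The mean signal of Cftr, 1 of these 4, was below the 20th percentile. Krt19, a duct keratin chosen after its values were seen, reached 9.13 there, against 6.74 and 7.07 on the other Sox17-GOF arrays and 6.53, 6.30 and 6.16 in control islets. The fifth duct marker, the keratin Krt7, ran the other way and was lowest of all 6 arrays on replicate 3, at 10.26, 10.36 and 10.08 in Sox17-GOF islets, against 10.54, 10.58 and 10.62 in control islets (log2 fold change -0.34, adjusted p = 0.0849, limma). The mean of 8 stellate cell and fibroblast markers was 7.02, 7.46 and 7.55 in Sox17-GOF islets, against 6.99, 7.05 and 6.63 in control islets. All 8 had a log2 fold change above 0, against 47.1% of all genes. None was called by limma and 4 had an unadjusted p under 0.05, where 19.1% of all probe sets had one. Replicates 2 and 3 of Sox17-GOF were about as high as each other in this mean, and 4 of the 8 were highest on replicate 3. The acinar mean was 10.09, 10.76 and 10.97 in Sox17-GOF islets, against 10.94, 10.63 and 10.69 in control islets, and the leukocyte mean was 7.16, 7.19 and 7.51 in Sox17-GOF islets, against 7.57, 7.74 and 7.14 in control islets. In those lists 7 of 8 acinar and 7 of 8 leukocyte markers were highest of the Sox17-GOF arrays on replicate 3, and 7 of 8 acinar and 4 of 8 leukocyte markers were highest there of all 6 arrays. The median excess of replicate 3 over the mean of replicates 1 and 2 of Sox17-GOF was 0.66 for the acinar, 0.51 for the duct and 0.36 for the leukocyte markers. It was 0.22 for the δ and PP cell, 0.12 for the endothelial, 0.11 for the stellate cell and fibroblast and 0.10 for the Schwann cell markers. For the α and β cell markers it was 0.03 and 0.004. Of the 5 δ and PP cell markers, 4 were highest of the Sox17-GOF arrays on replicate 3. Replicate 1 had the lowest acinar mean of all 6 arrays. The endothelial mean, at 8.07, 8.13 and 8.20 in Sox17-GOF islets, against 8.28, 8.17 and 8.26 in control islets, overlapped between the groups, and the β cell mean was lower on all Sox17-GOF arrays, at 10.72, 10.66 and 10.62 in Sox17-GOF islets, against 11.14, 11.13 and 11.10 in control islets. Called genes in these lists, beside the 4 β cell markers, were Bhlha15 (acinar) and Kdr (endothelial), both lower in Sox17-GOF islets. Of the 3 α cell, 5 δ and PP cell and 4 Schwann cell markers measured, none was called by limma, and 1, a Schwann cell marker, had an unadjusted p under 0.05. The part of these other cells in the levels of the 10 genes was not tested.

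**Figure D4:**
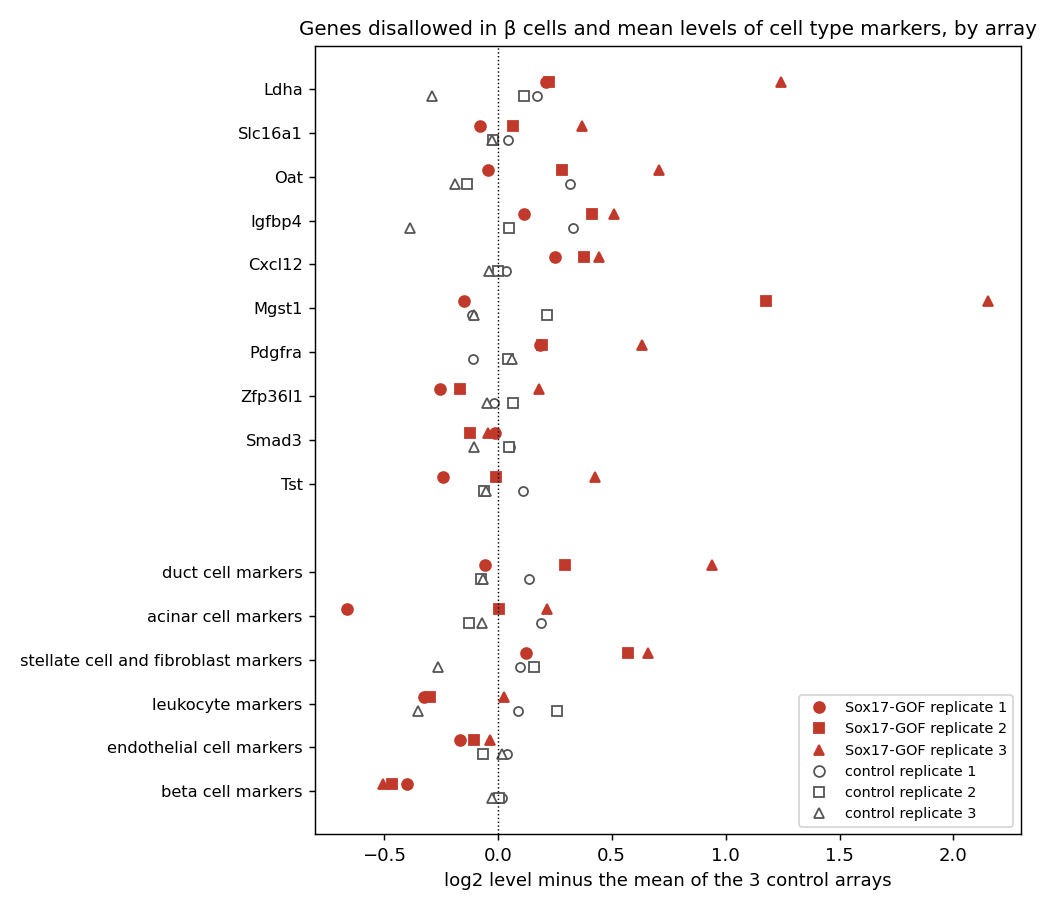
Level on each array minus the mean of the 3 control arrays (log2 units, horizontal axis) for the 10 genes and for the mean of 6 cell type marker lists; filled red symbols are Sox17-GOF replicates and open grey symbols control replicates. The red triangle of replicate 3 lies farthest right for 9 of the 10 genes and for the duct, acinar and stellate cell and fibroblast markers, whereas all red symbols lie left of 0 for the β cell markers.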

How the data were processed

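RNA of whole islets from 3 Sox17-GOF and 3 control samples was amplified with a NuGEN kit, labelled with biotin and hybridised to Affymetrix Mouse Gene ST arrays. In the deposited table the values stand on the log2 scale after RMA by the authors, a procedure of background correction, quantile normalization and median polish per probe set. The program is not settled, since GeneSpring is named in the methods but Affymetrix Expression Console in the processing notes of the submitters. RMA gives all arrays nearly the same distribution, so levels are relative to the other genes on an array. All 6 arrays were used as deposited.

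Samples were grouped by the genotype in the labels. Group means were fitted by lmFit and eBayes of limma 3.58.1 (R 4.3.3), with no trend on intensity. Adjustment was by Benjamini-Hochberg over the 22961 of 34760 probe sets that carry a gene symbol, at a threshold of 0.05. All 10 genes are named with every array's value. Of each related list, the called genes are named, at most 4, or otherwise the gene with the largest change. Of each marker list, the called genes are named, and for Cxcl12 the 3 genes with the nearest profile among those above the 20th percentile. The 10 genes and the lists were chosen with earlier results of these data known. Replicate numbers did not pair the samples. Other settings tried were eBayes with a trend, weighted arrays, centring on array medians, a second quantile normalization, testing every probe set, dropping dim probe sets, a replicate block, the t-test named in the methods, averaging the probe sets of a gene, and omitting each array in turn. The procedure was tested on simulated arrays. The number of arrays limits the precision.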

Additional observations from a re-analysis of the deposited data

How the results depend on the processing

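The number of probe sets called was 1133, and was 558 with all probe sets tested, 720 with the replicate block, 71 by the methods' t-test after Benjamini-Hochberg adjustment, and 385 to 1020 when 1 array was left out. Of the 10 genes, 1 was called, and 0 were with an intensity trend, with all probe sets, with the replicate block and by the methods' t-test (adjusted, or at 1.3-fold and an unadjusted 0.05). Leaving out 1 array gave 0 to 2 calls, Cxcl12 and Mgst1 without Sox17-GOF replicate 1. Of the 95 related genes, 7 were called, against 4 with all probe sets, 2 and 12 by the methods' t-test in its adjusted and its unadjusted form, and 3 to 7 without 1 array. The Cxcl12 call ended in 9 of 15 alternatives, among them the intensity trend (adjusted p = 0.0627, limma), all probe sets (0.0991), the replicate block (0.111) and the methods' t-test (0.125). Its adjusted p ranged from 0.0350 to 0.154, and its direction held in all 15. Leaving out 1 array turned the sign of 3 fold changes near 0. The log2 fold change ran from -0.01 to 0.22 for Slc16a1, from -0.21 to 0.01 for Zfp36l1 and from -0.12 to 0.21 for Tst. It was 0.0097 for Zfp36l1 without Sox17-GOF replicate 1, and -0.0054 for Slc16a1 and -0.12 for Tst without Sox17-GOF replicate 3. The other 7 genes kept their direction in all 15 alternatives. Slc16a1 had no value with dim probe sets left out. Same-numbered samples did not deviate together (correlations of 0.05, -0.02 and -0.04 for numbers 1, 2 and 3), so the block is no pairing. The Igfals and Dnmt3a calls each ended in 11 of 15 alternatives, the Pdgfd call in 4, the Sqor call in 3 and the Cbs call in 1. The cause of these changes was not tested. Testing all probe sets changes the moderated variances as well as the number of tests adjusted over. With 3 arrays a group, the 95% intervals of Ldha, Slc16a1, Mgst1, Oat, Igfbp4 and Tst include both no change and more than 1.3-fold.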
